A study of Mus musculus with 48 samples.

Results

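The cytosolic ribosomal protein genes encode the structural proteins of the ribosome. They were taken by symbol from the deposited expression table: every gene named Rps or Rpl with a number and at most a short suffix, plus Rplp0, Rplp1, Rplp2 and Rpsa, without Rps27l and the Rps6k kinases. The rule used no measured value and returned 87 genes of the 48526 in the table, 35 named Rps (proteins of the small, 40S subunit) and 52 named Rpl (proteins of the large, 60S subunit). In a growing cell each subunit needs most of its proteins in equal number. Many of the messenger RNAs share a start made of a C followed by an unbroken run of C and T, the terminal oligopyrimidine tract. The kinase complex mTORC1 acts through that tract, with the protein LARP1, on how strongly these messengers are translated. Free Rpl5 and Rpl11 can bind Mdm2, the main inhibitor of p53.

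The study measured RNA in microglia, the resident macrophages of the brain, taken from the hippocampus of C57BL/6 mice by flow sorting on Cx3cr1. Animals received a single whole-brain dose of 8 Gy, or a sham procedure, on postnatal day 21, and were killed 2 h, 6 h, 1 day or 1 week later. Each of the 8 groups held 6 animals, 48 libraries in all. All animals shared the strain, the age at treatment and a mild enzymatic digestion of the tissue before sorting. The question for these genes is whether their level differed between irradiated and sham microglia at each time, and how much of a difference at 6 h depends on which sham libraries stand as controls.

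Libraries held between 175382 and 3856777 reads on genes, with a median of 2212424, and 3 libraries held fewer than 1000000: sham 1 day replicate 6, irradiated 2 h replicate 2 and sham 6 h replicate 4. All 16 microglia markers passed the filter on low values and together took between 40542 and 63621 reads per 1000000. Markers of other cells were far lower. The 8 perivascular macrophage markers took at most 1431 reads per 1000000 in a library and the 12 neuron markers at most 369, in irradiated 1 week replicate 4, with 0 reads for the neutrophil genes Ly6g, Mpo and Retnlg. One group was not uniform. Sham 6 h replicates 1 to 4 had 5.52% to 6.81% of their reads on the mitochondrial ribosomal RNA mt-Rnr2, while replicates 5 and 6 had 3.02% and 2.79%, in the range of the irradiated 6 h libraries (2.12% to 3.98%). The 6 h results are given against all 6 sham libraries and against sham libraries 5 and 6 alone. This choice was made beforehand, as earlier work on these data had found libraries 5 and 6 apart from the rest. The labels give no batch that separates these libraries.

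Levels are given as RPKM, reads per kilobase of gene span (introns included) and per 1000000 reads of the library, recomputed from the recovered reads with each library's own total. On this scale the ribosomal protein genes were very uneven. Averaged over 48 libraries, Rplp1, a protein of the stalk that recruits elongation factors, stood at 328 RPKM, Rpl4 at 255, Rps15 at 132, Rps3 at 129 and Rps14 at 84.9. Rps6, the small-subunit protein phosphorylated by S6 kinase, stood at 0.827 RPKM and Rpsa, the protein that doubles as a laminin receptor, at 0.705. Rpl4, Rps3, Rplp1 and Rps14 together took 46.75% of the reads on all 87 genes, and their share ranged from 38.1% to 57.8% between libraries. Dividing by the annotated exon length in place of the span kept Rplp1 (825 per exonic kilobase), Rpl4 (658), Rps15 (348) and Rps3 (168) at the head, and Rps6 (1.44) and Rpsa (1.02) near the foot.

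This spread was set against how much sequence each gene shares with others, since reads that fit several places are often dropped or split. In the GENCODE M21 transcripts, 84 of the 87 genes shared at least 1 stretch of 50 bases with another gene, on either strand. The table also lists 274 rows for processed copies of these genes, of which 154 passed the filter. The share of 50-base words found in no other gene was counted over all annotated transcripts of a gene. The spliced coding sequence alone can share more. This unique share had a median of 76.4% over the 82 protein-coding members. Across those members it followed the level per exonic kilobase weakly (Spearman's rho = 0.161, a description over genes that share libraries). Rpl23a, with 14 named copies and 19.2% of its words to itself, reached 0.280 per exonic kilobase. Rpl11, with 82.3% of its words to itself, still reached only 1.22. Levels of single members are therefore compared between libraries below, and not read as amounts of protein.

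**Figure D1:**
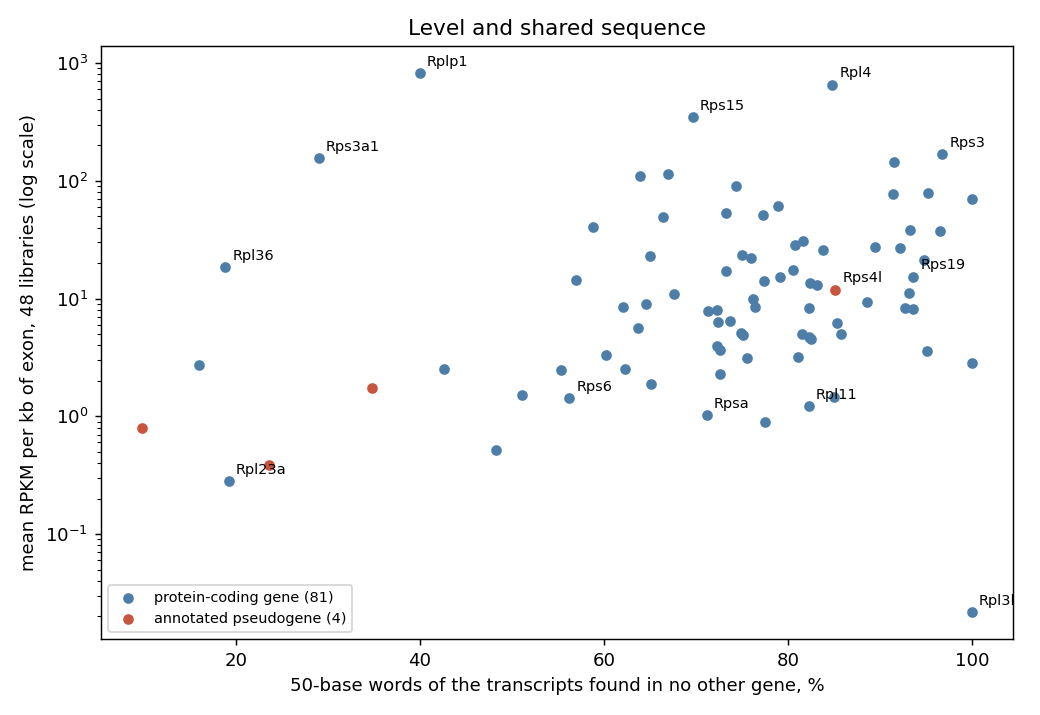
Mean level per kilobase of exon over 48 libraries (log scale) against the percentage of each gene's 50-base transcript words that occur in no other gene, for the 85 ribosomal protein genes with at least 1 read. Rplp1 sits highest at 825 although 40% of its words are its own, and Rpl3l, with no shared word, sits lowest.

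Of the 87 genes, 80 passed the filter of at least 1 RPKM in at least 6 libraries and 7 did not. Rpl10l, the testis copy of Rpl10, and Rps12l1, an annotated pseudogene, had no read in any library. Rpl3l, the heart and skeletal muscle copy of Rpl3, had 4 reads in 4 libraries. Rpl39l, the testis copy of Rpl39, had 268 reads in 38 libraries, of which 103 fell in 1 library. Rpl11 (363 reads), Rpl24 (56 reads) and Rpl23a (26 reads) are core members that stayed under the filter. Among the symbols that fit the rule 5 are annotated as pseudogenes, Rps4l, Rps3a2, Rps3a3, Rpl6l and Rps12l1. By position, 24 members overlapped a snoRNA gene and 20 another named gene, such as Cand2 at Rpl32 and Snhg9 at Rps2, and whether the counting used strand is not given in the sources used here.

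The start of the gene is where the shared feature of this family lies, and RefSeq starts (GRCm38.p6) were matched for 62 of the 87 genes, 73 starts in all. The starts of 6 members are shown, 10 bases before and 20 bases from the annotated first base, with the unbroken run of C and T through that base in capitals. They are 3 members with a long run, Rps9 whose run has no C at the start, and Rps19 and Rpl22l1, described at length below.
Rpl15, chr14:18270967-18270996, minus strand: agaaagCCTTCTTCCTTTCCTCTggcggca
Rpl14, chr9:120571507-120571536, plus strand: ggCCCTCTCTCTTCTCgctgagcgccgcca
Rplp2, chr7:141447641-141447670, plus strand: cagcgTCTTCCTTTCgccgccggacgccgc
Rps9, chr7:3704031-3704060, plus strand: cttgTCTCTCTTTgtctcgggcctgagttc
Rps19, chr7:24884582-24884611, plus strand: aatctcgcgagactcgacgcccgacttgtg
Rpl22l1, chr3:28805498-28805527, plus strand: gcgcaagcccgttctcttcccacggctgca
At the first of its 3 RefSeq starts Rps19 has no C or T at the annotated first base, and neither has Rpl22l1, which holds a run a few bases further on.

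A C at the annotated start followed by at least 4 further C or T was present at 13 of 73 ribosomal protein starts (17.8%) and at 2.505% of all 32851 starts of the same table. The annotated base can lie a few bases from the base used in the cell, and allowing the tract to begin within 15 bases on either side gave 64.4% against 40.95%. The letters CCGGAAG, a core bound by ETS factors, occurred on either strand in the 300 bases around 35.6% of ribosomal protein starts and 8.86% of all starts. The E-box letters CACGTG, bound by Myc, occurred at 8 of 73 starts against 7.15%. A p53 half-site by its consensus occurred at 9.59% of these starts against 8.36%. By gene it occurred in 4 of 62 members (6.45%) against 9.55%, as 1 site can lie near several starts of a gene. These are matches of letters and not sites of binding. Of the 13 members with a tract at the annotated start 4 were higher at 6 h in the test described below, with a median difference of 0.31 on the log2 scale, and of the 44 tested members with another start 15 were, with a median of 0.51, beside 12.9% of all genes tested that were higher.

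Summed over all 87 genes, ribosomal protein reads made up between 0.371% and 1.02% of a library, with a median of 0.584%. At 6 h the irradiated libraries held between 0.676% and 1.02%, with a median of 0.808%. Sham 6 h replicates 1 to 4 held between 0.419% and 0.548%, and replicates 5 and 6 held 0.681% and 0.674%. Sham replicates 1 to 4 and 6 thus lay below every irradiated library, and replicate 5 lay just above the lowest of them. At 2 h sham libraries ranged from 0.371% to 0.593% and irradiated ones from 0.476% to 0.643%. At 1 day the ranges were 0.482% to 0.810% in sham and 0.557% to 0.709% in irradiated libraries, and at 1 week 0.445% to 0.583% and 0.476% to 0.763%, with overlap at each of these times. The 6 h pattern was also present without the 4 leading genes, where the share was 0.370% to 0.468% in irradiated libraries, 0.233% to 0.251% in sham replicates 1 to 4 and 0.340% to 0.357% in replicates 5 and 6. Both subunits showed it. The 40S genes took 0.296% to 0.379% in irradiated 6 h libraries and 0.164% to 0.282% in sham, and the 60S genes took 0.363% to 0.658% and 0.242% to 0.406%. In a sorted bulk sample a lower share of these reads cannot be told apart from fewer cells that hold them.

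**Figure D2:**
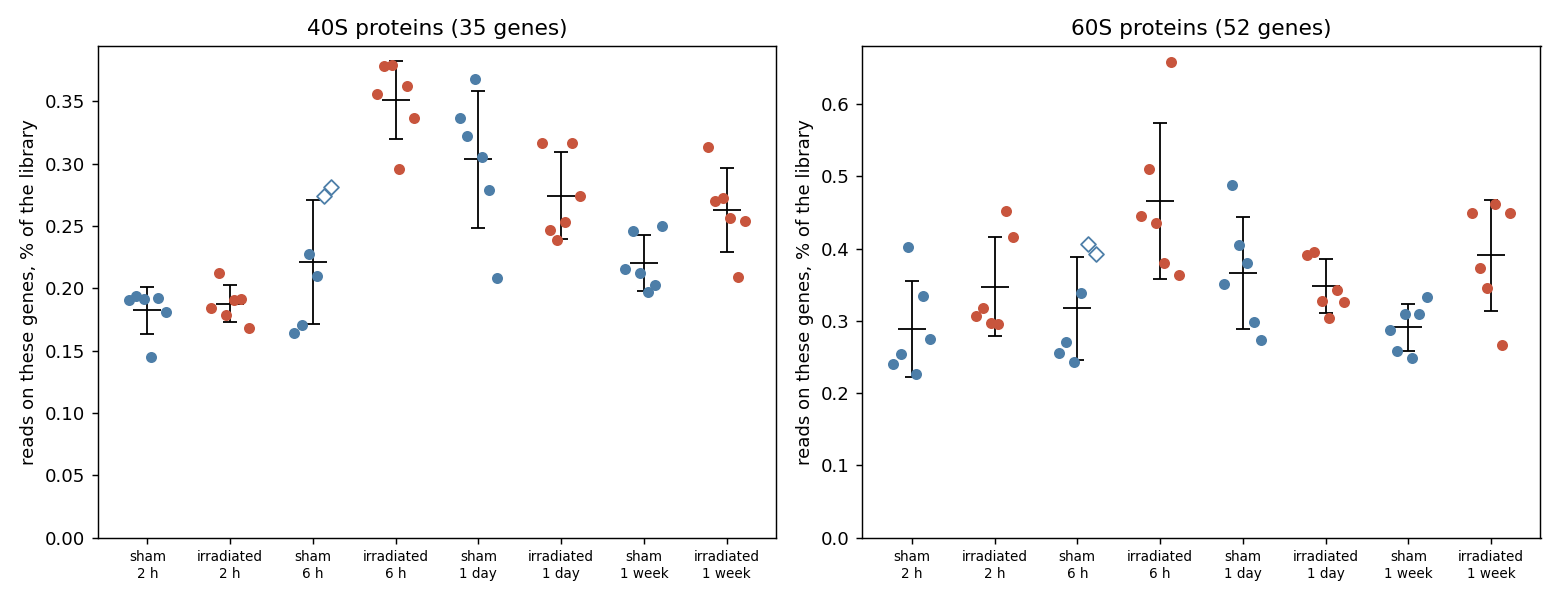
Reads on the 35 genes of 40S proteins (left) and the 52 genes of 60S proteins (right) as a percentage of each library's reads. Each point is 1 library, 6 per group; bars give the group mean and SD; open diamonds are sham 6 h replicates 5 and 6, which lie above the other 4 sham 6 h libraries in both panels.

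At 6 h many ribosomal protein genes of both subunits were higher after irradiation when all 6 sham libraries served as controls. Of the 80 tested members 29 rose and 1, Rpl22l1, fell (limma, adjusted p below 0.05 over all 10132 genes tested). Over all genes tested 12.9% rose and 8.0% fell. The median difference of the members was 0.49 on the log2(RPKM + 1) scale, beside 0.08 for all genes tested, and 66 of the 80 were above 0. The rise took in 12 of 34 tested 40S genes (median difference 0.59) and 17 of 46 tested 60S genes (median 0.45). Calls were rarest among weakly covered members: 1 of the 20 lowest (up to 2.90 RPKM) was higher, against 11 of the 20 highest (15.2 RPKM and above). Among members with at least 75% of their 50-base words to themselves 19 of 43 were higher, and among the others 10 of 37. With the 12 libraries of this time fitted alone 18 members rose. With the values exactly as deposited, which were divided by totals of other libraries, 0 rose, and the median difference was 0.30.

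Among the 40S genes, Rps19 led, and it is described on its own below. Rps2, a protein at the entrance of the messenger channel, ranged from 2.87 to 6.62 RPKM in sham 6 h libraries (median 3.84) and from 8.19 to 11.5 in irradiated ones (median 9.93). The groups did not overlap, and the difference of 1.11 ± 0.16 (SE, n = 6 per group) had an adjusted p of 1.1e-06. Rps9, a protein that binds early in small-subunit assembly, ranged from 24.6 to 84.5 RPKM in sham (median 31.5) and from 82.8 to 213 in irradiated libraries (median 102). Its sham replicates 5 and 6, at 77.5 and 84.5, lay far above the other 4 (24.6 to 33.8). Rps9 differed by 1.47 ± 0.26 (adjusted p = 4.7e-05). Rps3a1 ranged from 17.3 to 35.4 RPKM in sham and from 34.5 to 51.0 in irradiated libraries, a difference of 0.74 ± 0.14 (adjusted p = 0.00014). Rps14 and Rps15 rose as well, by 0.74 and 1.34, while Rps3 (0.65 ± 0.25, adjusted p = 0.057), Rps6 (−0.24), Rpsa (0.27), Rps26 (0.60) and Rps27a (−0.22) did not pass. For Rps3 every irradiated library lay above every sham library.

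Among the 60S genes Rpl32 had the smallest adjusted p (4.1e-06). It ranged from 6.74 to 29.6 RPKM in sham (median 10.9) and from 33.7 to 60.8 in irradiated libraries (median 41.6), a difference of 1.70 ± 0.26. Every irradiated library lay above every sham library, but sham replicates 5 and 6 stood at 25.5 and 29.6 and the other 4 at 6.74 to 11.8. Rpl37a rose by 1.13 ± 0.23 (adjusted p = 0.00038), from 2.71 to 10.4 RPKM in sham to 8.97 to 15.4 in irradiated libraries, with 5 of 6 irradiated libraries above every sham library. Of the stalk proteins, Rplp0 (0.76 ± 0.23, adjusted p = 0.016) and Rplp2 (0.82 ± 0.23, adjusted p = 0.0075) rose, and Rplp1 (0.49 ± 0.26, adjusted p = 0.18) did not pass. Rpl5, the partner of Mdm2, was weakly covered (0.172 to 1.19 RPKM in sham, 0.312 to 1.03 in irradiated libraries) and did not pass (−0.13 ± 0.16, adjusted p = 0.63).

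**Figure D3:**
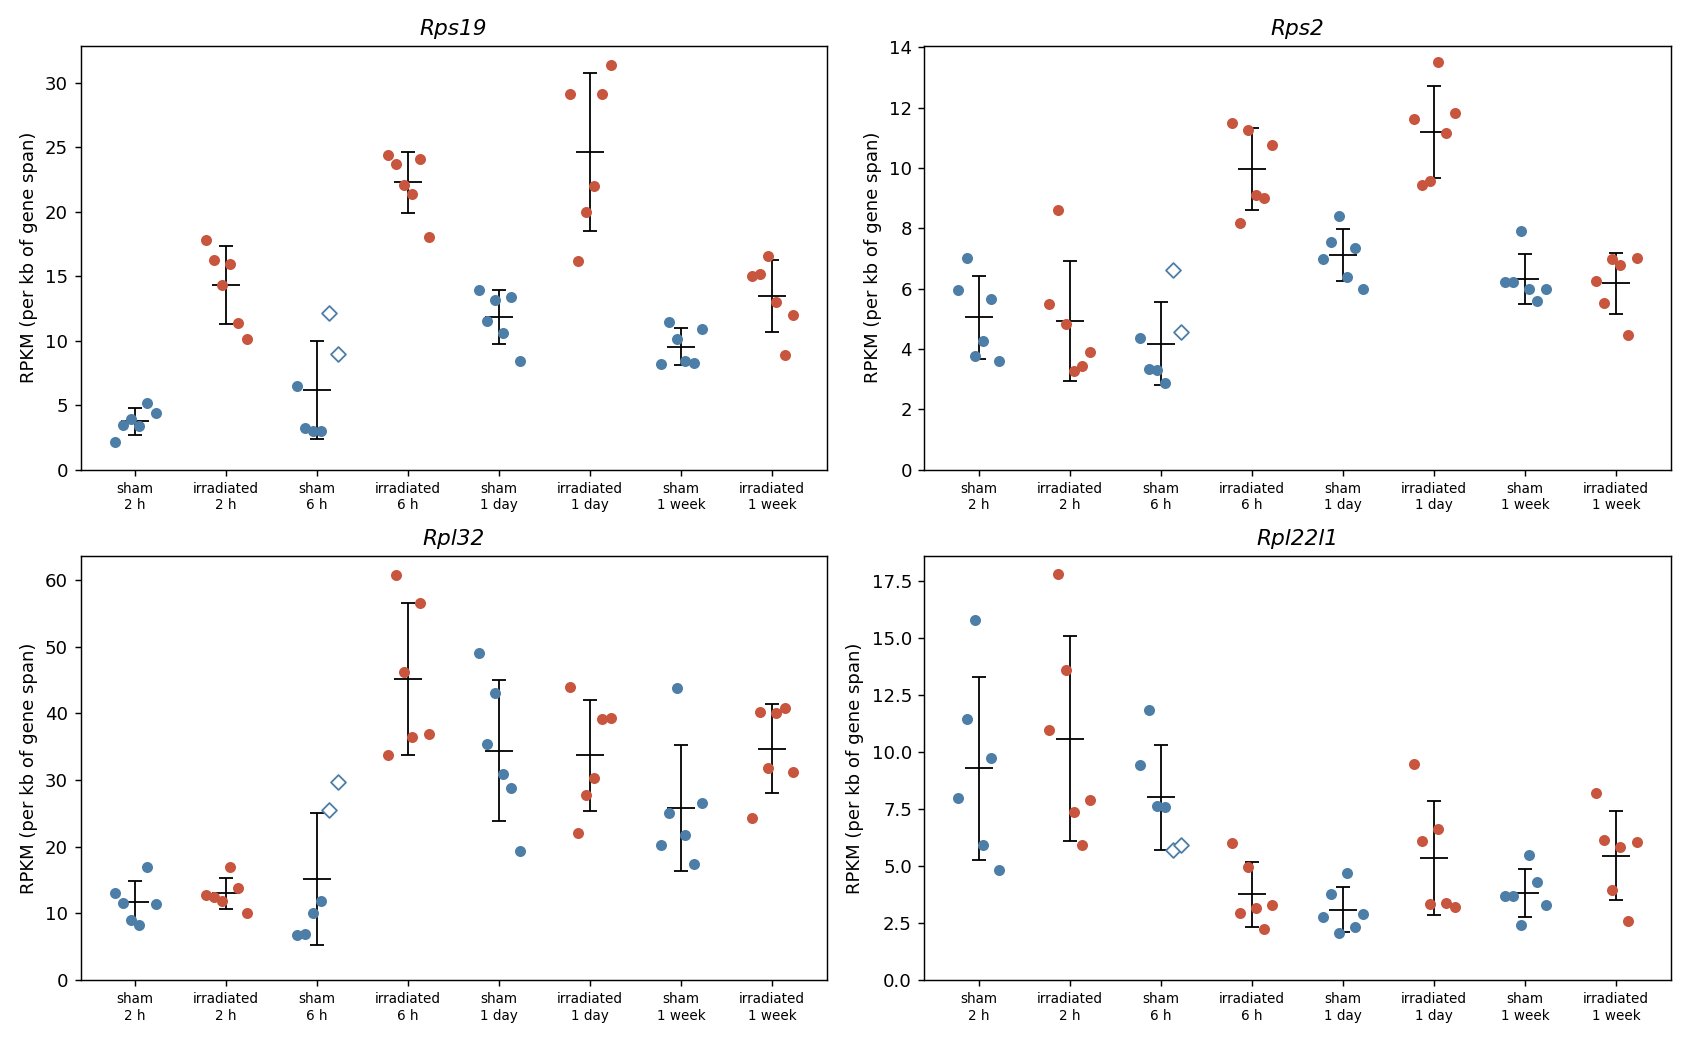
RPKM of Rps19, Rps2, Rpl32 and Rpl22l1 in each of the 48 libraries, by group; bars give the mean and SD of 6 libraries, and open diamonds mark sham 6 h replicates 5 and 6. For Rps19 and Rps2 the irradiated 6 h and 1 day libraries lie above every sham library of their time; for Rpl32 the diamonds lie between the other sham libraries and the irradiated ones.

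Values of other kinds moved with the 6 h result. The share of mt-Rnr2 at 6 h was lower in irradiated libraries and in sham replicates 5 and 6, as given above. Other times did not all go this way. At 2 h it was 5.86% to 14.1% in irradiated and 2.84% to 9.02% in sham libraries. The ranges were 0.892% to 2.61% and 1.14% to 4.37% at 1 day, and 2.29% to 4.11% and 1.17% to 2.07% at 1 week. Of the 16 microglia markers 3 were higher and 6 lower at 6 h. Their sum was 53990 to 62053 reads per 1000000 in sham and 46297 to 52077 in irradiated 6 h libraries. The 8 neural progenitor markers summed to 5.62 to 31.1 reads per 1000000 in sham and 36.1 to 70.7 in irradiated libraries. Among the progenitor markers Nes alone passed the filter (group means 1.28 and 5.65 RPKM), and the defining genes Dcx, Neurod1, Eomes and Igfbpl1 had group means of at most 0.0369 RPKM at 6 h. The 8 astrocyte markers summed to 11.8 to 24.6 reads per 1000000 in sham replicates 1 to 4, 36.6 to 41.4 in replicates 5 and 6 and 38.1 to 73.2 in irradiated libraries, and 1 of 1 tested marker, Aldoc, was higher. The 10 oligodendrocyte markers followed the same split, with 94.3 to 140 in sham replicates 1 to 4, 191 to 217 in replicates 5 and 6 and 167 to 214 in irradiated libraries, and 0 of 4 tested markers passed by limma. The part of these in the result was not tested.

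Against sham libraries 5 and 6 alone 1 member passed the test at 6 h. This comparison shares its irradiated libraries and both sham libraries with the one above. Rps19 was higher and no member was lower, beside 1.56% of all genes tested that were higher. The median difference of the 80 members was 0.21, beside 0.00 for all genes tested, and 66 were above 0. Rps2 ranged from 8.19 to 11.5 RPKM in irradiated libraries against 6.62 and 4.55, a difference of 0.74 ± 0.21 with an adjusted p of 0.057. Rpl17 (0.99 ± 0.30, adjusted p = 0.079), Rpl12 (1.11 ± 0.43, adjusted p = 0.26) and Rpl32 (0.66 ± 0.29, adjusted p = 0.38) followed. Rps15 stood at 165 to 238 RPKM in irradiated libraries, at 199 and 182 in sham replicates 5 and 6, and at 46.0 to 58.4 in replicates 1 to 4. Rpl22 stood at 14.1 to 15.1 RPKM in irradiated libraries and at 16.4 and 14.1 in the same pair. Without sham replicate 6 the count was 0 (Rps19, adjusted p = 0.42), in a fit where the lone sham library is assumed to vary like the other groups, and without irradiated replicate 2 it was 2. By limma-voom on the recovered reads it was 2. With 2 sham libraries the standard errors are larger, and a p that misses the threshold does not show that values did not differ.

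Rps19 was the member that differed at the most times. Rps19 is a small-subunit protein needed to mature the 3′ end of 18S ribosomal RNA, and the gene most often mutated in Diamond-Blackfan anaemia; in the mouse it lies on chromosome 7, 24884371 to 24889806 (GRCm38, plus strand). At 2 h it ranged from 2.15 to 5.17 RPKM in sham (median 3.66) and from 10.1 to 17.8 in irradiated libraries (median 15.2), 3.83 times as high by the group means. At 6 h it ranged from 3.02 to 12.1 (median 4.85) and from 18.1 to 24.4 (median 22.9), and at 1 day from 8.39 to 13.9 (median 12.3) and from 16.2 to 31.4 (median 25.5). At these 3 times every irradiated library lay above every sham library. The differences were 1.70 ± 0.21 (adjusted p = 8.5e-08), 1.86 ± 0.21 (adjusted p = 8.0e-09) and 0.98 ± 0.21 (adjusted p = 0.0023). At 1 week it ranged from 8.16 to 11.4 and from 8.91 to 16.6, and 5 of 6 irradiated libraries lay above every sham library. That difference of 0.44 ± 0.21 did not pass (adjusted p = 0.26). Against sham libraries 5 and 6, at 12.1 and 8.97 RPKM, the 6 h difference was 1.02 ± 0.23 (adjusted p = 0.0064), 2.11 times by the means. The values rest on 8 to 380 reads per library.

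Rps19 has 14 named processed copies in the table, and 93.6% of its 50-base words occur in no other gene. These words come from all its annotated transcripts, whose exons together cover 4685 of the 5436 bases of the gene. How much of its spliced coding sequence is shared with the copies was not measured. The rows Rps19-ps6 and Rps19-ps7, with 65 and 94 reads in all libraries together, also passed the threshold upward at 6 h (1.51 ± 0.48, adjusted p = 0.020, and 1.24 ± 0.38, adjusted p = 0.017), and Rps19-ps7 at 1 day (1.53 ± 0.38, adjusted p = 0.0099). At 6 h the 6 irradiated libraries held 1 to 16 and 1 to 7 reads on these rows and the sham libraries 0 to 2 on each. Whether reads on these rows came from the gene was not tested. Of the 154 tested copies of any ribosomal protein gene 7 were higher at 6 h (4.55%, beside 12.9% of all genes tested) and none lower, with a median difference of 0.27.

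At 2 h few members passed the test. Of the 80, 4 rose and none fell, beside 4.6% of all genes tested that rose. The median difference was 0.16 beside −0.01, and 59 of the 80 were above 0. Besides Rps19, Rpl15 ranged from 1.84 to 3.32 RPKM in sham and from 2.03 to 5.84 in irradiated libraries (0.69 ± 0.17, adjusted p = 0.0055), with 5 of 6 irradiated libraries above every sham library. Rpl34 ranged from 9.56 to 22.4 and from 13.9 to 26.9 (0.61 ± 0.18, adjusted p = 0.027), and the groups overlapped. Rpl19 was near the lower limit of detection, from 0.517 to 0.770 in sham and from 0.497 to 2.28 in irradiated libraries (0.57 ± 0.17, adjusted p = 0.025). Of these 4, Rps19 and Rpl34 were also called at 6 h. By limma-voom 1 of the 80 passed at 2 h, and Rpl15 (adjusted p = 0.10), Rpl34 (0.15) and Rpl19 (0.18) did not.

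At 1 day and 1 week the median of the members lay near that of all genes tested. At 1 day 3 of 80 rose and none fell, beside 2.9% of all genes tested that rose, and the median difference was −0.04 beside 0.00. They were Rps19, Rps2 and Rpl31. Rps2 ranged from 5.98 to 8.39 RPKM in sham and from 9.43 to 13.5 in irradiated libraries with no overlap (0.59 ± 0.16, adjusted p = 0.020). Rpl31, a protein at the rim of the exit tunnel, ranged from 0 to 1.60 RPKM and from 1.35 to 2.88 (0.76 ± 0.22, adjusted p = 0.031). Rpl31 has 22 named copies, overlaps Tbc1d8 and did not pass by limma-voom (adjusted p = 0.13) or without the libraries under 1000000 reads (adjusted p = 0.11). At 1 week limma called 0 of 80, beside 2.03% of all genes that rose, with 11 members at an unadjusted p under 0.05, and limma-voom called 1 higher and 1 lower. The median difference at 1 week was 0.06 beside 0.05. The smallest p values at 1 week belonged to Rpl23 (−0.78 ± 0.25, adjusted p = 0.072), Rpl4 (1.01 ± 0.35, adjusted p = 0.10) and Rplp1 (−0.72 ± 0.26, adjusted p = 0.11). Among the marker lists the monocyte and neutrophil genes stood at 25.1 to 91.9 reads per 1000000 in irradiated 1 day libraries. Among sham 1 day libraries replicate 6, the shallowest of the series, held 51.3 and the others 12.9 to 23.3. Plac8 had irradiated and sham means of 2.31 and 0.917 RPKM, but Ccr2 had 0.546 and 0.582. Of the 2 tested markers 1 was higher, and Ly6g, Mpo and Retnlg stood at 0. The part of these genes in the 1 day result was not tested.

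**Figure D4:**
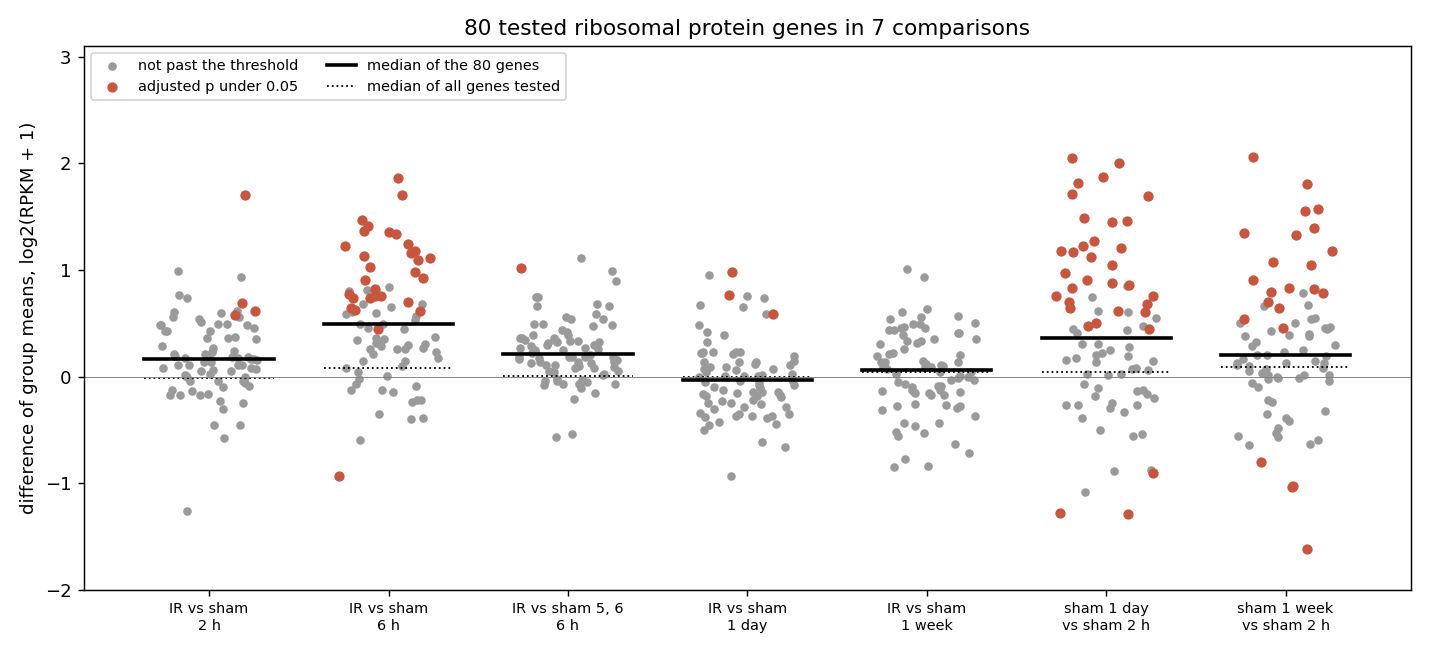
Differences of group means on the log2(RPKM + 1) scale for the 80 tested ribosomal protein genes in 7 comparisons; each point is 1 gene, red where adjusted p is below 0.05, the thick line is their median and the dotted line the median of all 10132 genes tested. The median is 0.49 at 6 h against 6 sham libraries, 0.21 against sham libraries 5 and 6, and 0.36 between sham libraries at 1 day and 2 h.

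Whether the effect of irradiation changed between adjacent times was tested as a difference of differences. From 2 h to 6 h the difference between irradiated and sham moved up for 6 members and down for 2, beside 5.56% and 3.72% of all genes tested. Rps2 (1.17, adjusted p = 0.00062), Rpl32 (1.55, adjusted p = 0.0057) and Rps9 (1.36, adjusted p = 0.015) moved up, and Rpl15 (−0.91, adjusted p = 0.013) moved down. From 6 h to 1 day it moved up for 1 member and down for 9, beside 1.71% and 2.67%. Rps9 (−1.97, adjusted p = 0.00096), Rpl32 (−1.71, adjusted p = 0.0041), Rps3a1 (−0.90, adjusted p = 0.0054) and Rps14 (−1.04, adjusted p = 0.0075) led these. With sham libraries 5 and 6 as the 6 h controls limma called 0 members in either of these contrasts, with 5 at an unadjusted p under 0.05 in each. From 1 day to 1 week 1 member passed in each direction, beside 2.54% and 2.89%. Rpl4 had a median of 227 RPKM in sham and 144 in irradiated libraries at 1 day, and 178 and 365 at 1 week (1.67, adjusted p = 0.038). Rplp1 went the other way, with medians of 386 and 569 at 1 day and 325 and 212 at 1 week (−1.39, adjusted p = 0.017). Without irradiated 1 week replicate 4, the library with the highest neuron marker sum, 1 member passed in place of 2. In the irradiated 1 week group Slc17a7 had the highest mean of the 12 neuron markers. No other marker of that list had a mean above 0.067 RPKM there, and Stmn2, Syt1 and Thy1 stood at 0. Whether neurons were present in that library was not tested.

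The sham groups also differed among themselves in these genes. Over the 4 sham groups 31 of 80 members passed limma's F test, beside 21.1% of all genes tested. Between 2 h and 1 day of sham 31 members were higher and 3 lower, beside 10.4% and 7.68% of all genes, with a median difference of 0.36 beside 0.04. Between 2 h and 1 week of sham 19 were higher and 4 lower, beside 11.9% and 6.9%. Rpl37 had the largest difference of the members at 1 day (2.05, adjusted p = 9.5e-06). It ranged from 0.515 to 2.08 RPKM at 2 h, 4.50 to 15.8 at 1 day and 2.07 to 6.07 at 1 week. Values at 2 h and 1 day did not overlap, but those at 2 h rest on 2 to 12 reads per library. The 15.8 rests on 7 reads in sham 1 day replicate 6, the shallowest library. Rpl14 ranged from 5.82 to 14.5 RPKM at 2 h, 34.2 to 43.6 at 1 day and up to 38.8 at 1 week (median 28.1), with no overlap between 2 h and either later time. Rps14 ranged from 39.7 to 64.7, 102 to 146 and 68.8 to 104. Rps4l, the annotated pseudogene, followed them, from 0.691 to 6.18 RPKM at 2 h to 9.47 to 24.2 at 1 day. Against the trend, Rps27a, which is made as a fusion with ubiquitin, was lower at 1 day (−1.29, adjusted p = 0.014) and Rps25, a protein used by viral internal ribosome entry sites, was lower at 1 week (−1.62, adjusted p = 0.0051). The mt-Rnr2 share ranged over the same groups from 2.84% to 9.02% at 2 h, 1.14% to 4.37% at 1 day and 1.17% to 2.07% at 1 week, and its part was not tested. Between sham 6 h, all 6 libraries, and sham 2 h limma called 0 members, with 7 at an unadjusted p under 0.05.

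The members higher at 6 h after irradiation and those higher in sham at 1 day than at 2 h overlapped. They shared 23 genes, 79.3% of the 29 and 74.2% of the 31. The comparisons had no library in common but came from 1 fit. The same estimate of each gene's spread entered both calls, so the lists are not independent. Over all genes tested the same comparisons shared 425 genes, 32.5% of the 1309 higher at 6 h and 40.4% of the 1053 higher between the sham groups. No test was made of whether the members overlap more than other genes, and a larger share of the members than of all genes was called in each comparison. Rpl22l1 was lower in both.

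**Figure D5:**
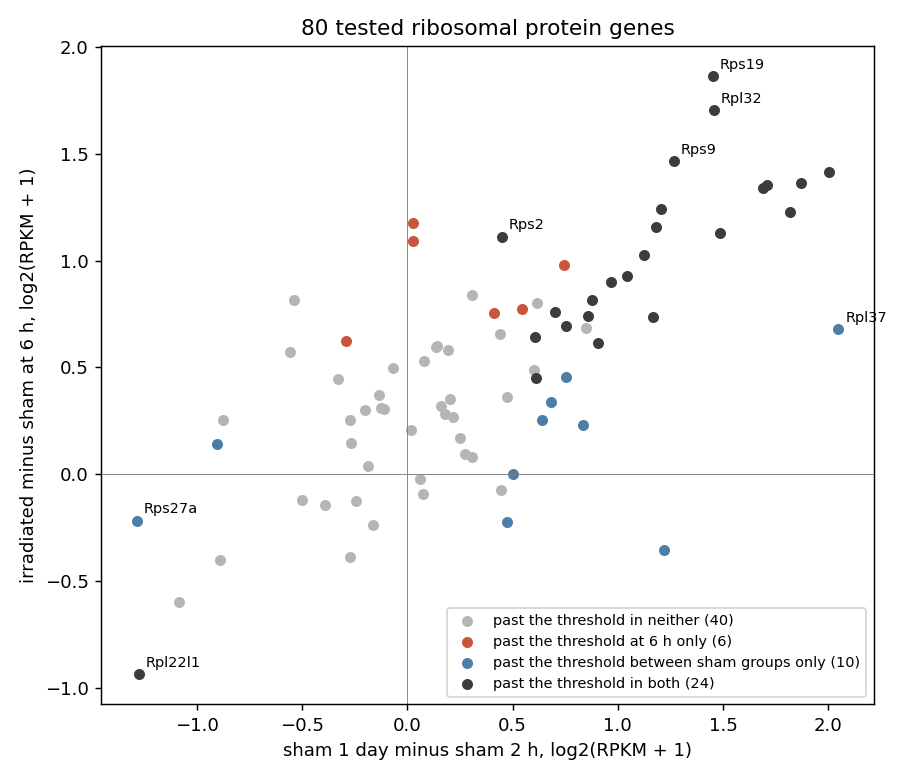
The difference between sham 1 day and sham 2 h (horizontal) against the difference between irradiated and sham at 6 h (vertical) for the 80 tested ribosomal protein genes, both on the log2(RPKM + 1) scale; 24 genes pass the threshold in both, 6 at 6 h only, 10 between the sham groups only and 40 in neither. Rps19, Rpl32 and Rps9 lie high on both axes and Rpl22l1 low on both.

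Rpl22l1 ran against its relatives. It is the paralogue of Rpl22, which can hold it down by binding its RNA, and either protein can take the same place in the 60S subunit. Rpl22l1 ranged from 5.71 to 11.8 RPKM in sham 6 h libraries (median 7.59) and from 2.21 to 6.00 in irradiated ones (median 3.20), and 5 of 6 irradiated libraries lay below every sham library. The difference was −0.94 ± 0.26 (adjusted p = 0.0075), and −0.57 ± 0.37 (adjusted p = 0.71) against sham libraries 5 and 6, which stood at 5.71 and 5.89. Rpl22 at 6 h ranged from 7.63 to 16.4 in sham and from 14.1 to 15.1 in irradiated libraries (0.45 ± 0.15, adjusted p = 0.030). Between sham 2 h and 1 day Rpl22l1 was lower (−1.28, adjusted p = 0.00049) and Rpl22 higher (0.61, adjusted p = 0.0040). The effect of irradiation on Rpl22l1 differed between 6 h and 1 day (1.52, adjusted p = 0.012), where it stood at 2.05 to 4.70 in sham and 3.20 to 9.45 in irradiated libraries. Of the other copies in the table, Rpl7l1 was higher in sham at 1 day (0.64, adjusted p = 0.0043).

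For the other genes of the translation machinery the shares called at 6 h are to be read beside the 12.9% of all genes tested that rose. Of 25 tested initiation, elongation and other genes known for the same tract at their start, 4 were higher at 6 h (16%) and none lower, with 16 above 0 and a median difference of 0.06. They included Eif3g, an initiation factor subunit (0.89 ± 0.23, adjusted p = 0.0046), Eef1a1, which delivers transfer RNA to the ribosome (0.47 ± 0.15, adjusted p = 0.017), and Eef1d (0.71 ± 0.24, adjusted p = 0.027). Of the same genes 1 was higher at 2 h (Eif3e, 0.33 ± 0.10, adjusted p = 0.024), 1 lower at 1 day (Eef1b2, −0.57 ± 0.16, adjusted p = 0.026) and 2 higher at 1 week, Eif3h and Rack1. Of 29 tested ribosome assembly genes 3 were higher (10.3%) and 1 lower at 6 h, with 19 above 0 and a median of 0.27. Nhp2, a core protein of the RNA-modifying box H/ACA particles, rose by 1.30 ± 0.41 (adjusted p = 0.021) and Gnl3, nucleostemin, by 0.94 ± 0.30 (adjusted p = 0.022), while Ncl, nucleolin, fell by 1.08 on the log2 scale (adjusted p = 0.019). At 2 h Mdn1 (0.51 ± 0.11, adjusted p = 0.00092) and Rrn3, a factor of RNA polymerase I (0.58 ± 0.17, adjusted p = 0.024), were higher. Of the 59 tested mitochondrial ribosomal protein genes 8 were higher at 6 h (13.6%), Mrps18a, Mrps11 and Mrpl2 first, with 50 above 0 and a median of 0.24, beside 0.08 for all genes tested. These shares lie near that of all genes. Against sham libraries 5 and 6 none of these 3 lists had a gene past the threshold.

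Among 18 tested genes of mTORC1 and its action on these messengers, 5 were higher (27.8%) and 2 lower at 6 h, beside 12.9% and 8.0% of all genes tested. Sesn2, an inhibitor of mTORC1 induced by p53, was higher at all 4 times, by 3.69 ± 0.25 at 2 h, 3.41 at 6 h, 2.42 at 1 day and 1.54 at 1 week, and by 2.68 ± 0.31 against sham libraries 5 and 6 (adjusted p = 9.0e-08). Sesn1 was lower at 2 h (−0.39), 6 h (−1.01) and 1 day (−0.59), and against sham libraries 5 and 6 (−0.68 ± 0.15, adjusted p = 0.0065). Eif4ebp1, the inhibitor of cap-dependent initiation, was higher at 2 h (0.58 ± 0.13, adjusted p = 0.0025), and Larp1, the protein that binds the tract, at 6 h (0.49 ± 0.13, adjusted p = 0.0076). Mycl, a Myc family factor, was lower at 1 day (−1.62 ± 0.27, adjusted p = 3.7e-05).

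Members did not all vary together over the 48 libraries. Against the mean log2(RPKM + 1) of the 80 members, of which each is itself a part, 33 members had a Pearson's r over 0.5 and 9 had one below 0, with a range from −0.362 for Rpl22l1 to 0.858 for Rplp2. Rpl5 stood at −0.346. Among the other 10052 tested genes the 5 most like that mean were Cyba, a subunit of the phagocyte NADPH oxidase (r = 0.854), Tyrobp, the adaptor of Trem2 (0.847), Grina (0.840), Commd4 (0.797) and Actb (0.797). These are descriptions over libraries that differ in depth and in the share of mt-Rnr2.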

How the data were processed

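RNA of sorted hippocampal microglia was sequenced in 48 libraries. The submitters' processing notes name featureCounts (version 1.5.1), STAR (2.6.1d), FastQC (0.11.8) and bcl2fastq (2.20.0), with GRCm38 (mm10) as the build. The authors deposited 1 table of RPKM values per gene. Each value times the gene's span was a whole number of reads over the total of some library (100% of 719081 values above 0, within 0.001 reads), but 2.05% had been divided by their own library's total, and deposited values stood from 0.436 to 3.11 times those recomputed with it (5th to 95th percentile). RPKM was therefore recomputed with each library's own total, taken as the recovered total that the sum of the column's reads matched (47 of 48 exactly, the other within 1 read). That match rests on the recovered sums alone, and every value printed depends on it. No pair of libraries was identical. The main test was limma 3.58.1 (R 4.3.3; trend, robust) on log2(RPKM + 1), for the 10132 genes that reached an RPKM of 1 in 6 libraries. All 8 groups shared 1 fit (40 residual degrees of freedom, 36 without sham 6 h replicates 1 to 4), two-sided, with Benjamini-Hochberg adjustment over all tested genes and a threshold of 0.05. The scripts were tested on simulated data. The ribosomal protein genes, lists and tests were chosen with earlier results of these data known. Named genes are a panel by role plus those with the smallest adjusted p: up to 6 per comparison and direction, 4 per effect difference, 3 per list. A few further members are named for their level or range, chosen after their values were seen. Sequences are from RefSeq (GRCm38.p6).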

Additional observations from a re-analysis of the deposited data

Results flagged for a closer look

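Among 144 sets of 6 values checked, 8 held a library set apart from the other 5 by Dixon's test, and chance gives about 1 in 20. Rps9 stood at 213 RPKM in irradiated 6 h replicate 3 (next 122), at 188 in irradiated 1 week replicate 4 (next 83.2) and at 51.0 in sham 1 day replicate 6 (next 80.7). Rplp0 stood at 38.8 in the same sham 1 day library (next 52.5), which is the shallowest of the series. Rps15 stood at 49.6 in irradiated 1 day replicate 2 (next 158) and Rpl34 at 22.4 in sham 2 h replicate 5 (next 12.4). In sham 1 week replicate 3 Rps2 stood at 7.91 (next 6.22) and Rpl32 at 43.7 (next 26.6).

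The effect of irradiation differed between times for several members by the test of that difference. Between 6 h and 2 h the differences of effect on the log2 scale were 1.17 for Rps2, 1.55 for Rpl32, −0.91 for Rpl15, 1.36 for Rps9, 1.11 for Rps3, 1.05 for Rpl18, −1.11 for Rpl22l1 and 0.99 for Rpl37a. Between 1 day and 6 h they were −1.97 for Rps9, −1.71 for Rpl32, −0.90 for Rps3a1, −1.04 for Rps14, 1.52 for Rpl22l1, −1.61 for Rpl37, −1.51 for Rpl29, −1.68 for Rps15, −1.61 for Rpl39 and −1.12 for Rpl26. Between 1 week and 1 day they were −1.39 for Rplp1 and 1.67 for Rpl4. Both sets that involve 6 h rest on all 6 sham 6 h libraries.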

How the results depend on the processing

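Of the 172 recomputed summary values 130 stayed the same, 28 were weaker, 13 were stronger and 1 was reversed. A count was the same within 1.5 times, and a median if it moved by less than the SD of the library medians. A median smaller than that SD could change sign and still count as the same. Of 180 values for named genes 149 kept their direction and stayed past the threshold, 31 missed it and 0 reversed. The calls of Rpl31 at 1 day and Rpl34 at 2 h held in 6 of 11 alternatives each, Rpl19 at 2 h in 7, Rpl15 at 2 h in 8, and Rps19 against sham libraries 5 and 6 in 15 of 19. With the values exactly as deposited, divided by totals of other libraries, the counts of higher members fell to 0 at 2 h, 6 h, 1 day and against sham libraries 5 and 6, the 3 counts of effect differences fell to 0, the sham groups over time gave 10 of 80, and the median against sham libraries 5 and 6 turned to −0.039. With the libraries of a comparison fitted alone the higher members were 1 at 2 h, 18 at 6 h (17 of them among the 29), 2 at 1 week and 2 against sham libraries 5 and 6. By limma-voom they were 1 at 2 h, 1 at 1 week and 2 against sham libraries 5 and 6, and the effect differences numbered 4 (6 h against 2 h), 21 (1 day against 6 h) and 8 (1 week against 1 day). Without a filter these 3 numbered 4, 6 and 1. Median-ratio scaling gave 5 for the first and 2 against sham libraries 5 and 6, and a total without mitochondrial genes, or the trend with gene span removed, gave 5 for the first. Sham 6 h libraries 1 to 4 alone gave 22 and 27 effect differences, and libraries 5 and 6 alone 0 and 0. Without the 3 libraries under 1000000 reads, 1 member was higher at 1 week, 3 against sham libraries 5 and 6, and 9 differed between 1 week and 1 day. Leaving out single replicates gave 0 (without sham replicate 6) to 2 (without irradiated replicate 2) against sham libraries 5 and 6, and without irradiated 1 week replicate 4 the last effect difference numbered 1. Except where a value itself shows it, the cause was not tested.

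Replicate numbers recur in every group, and the labels do not say whether they pair animals. Of 24 same-numbered pairs 2 correlated over 0.1, both at 2 h, and 7 correlated best with their own number. Such correlations cannot show that pairing is absent. With the replicate block 29 members were higher at 6 h, 27 of them the same genes, 0 against sham libraries 5 and 6, and 1 differed between 1 week and 1 day. With the replicate block and the gene span trend removed these were 18, 0 and 0, and 5 differed between 1 day and 6 h. Members with few reads, such as Rpl19 and Rpl11, are limited by depth.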
